A study of Mus musculus with 21 samples.

Results

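The 9 CXC chemokine genes Cxcl1, Cxcl2, Cxcl3, Cxcl5, Cxcl9, Cxcl10, Cxcl12, Cxcl14 and Cxcl16 were followed through 21 RNA-Seq libraries from the mouse. They were chosen by name as members of one ligand family, and they are 9 of the 54123 genes of the series. The libraries came from neutrophils (PMNs), labelled as blood cells, and from renal tubular epithelial cells (TECs), labelled as kidney cells, of wildtype mice. The methods of the study describe its animals as males aged 8 to 12 weeks on a C57BL/6 background. Cells were collected 24 hours after surgery. In renal ischemia-reperfusion injury (IRI) both renal pedicles were clamped for 32 minutes, and sham animals had the operation without the clamps. Remote ischemic preconditioning (RIPC) was 3 inflations of a hind limb cuff of 5 minutes each, completed about 15 minutes before the clamping, and control animals had no limb ischemia. This gave 8 groups of 2 or 3 libraries. PMN sham control, PMN IRI control and TEC IRI control held 2 libraries each, and the 5 other groups (PMN sham RIPC, PMN IRI RIPC, TEC sham control, TEC sham RIPC and TEC IRI RIPC) held 3. The prominin-1 bead isolation given for tubular cells selects the proximal part of the nephron, and all groups of a cell type shared the isolation. The study calls the libraries biological replicates and counts animals as n in its mouse experiments, while the labels tie no library to an animal. P-values measure the spread between these libraries.

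CXC chemokines are small secreted proteins that direct the movement of leukocytes through receptors that couple to G proteins. Cxcl1, Cxcl2, Cxcl3 and Cxcl5 bind Cxcr2 and draw neutrophils, and their genes respond to NF-kB and are held in check by rapid decay of the mRNA. Cxcl9 and Cxcl10 are induced by interferons and bind Cxcr3 on T cells and natural killer cells. Cxcl12 is a homeostatic ligand of Cxcr4 that Ackr3 scavenges, Cxcl16 is made as a membrane protein that Adam10 can shed and that Cxcr6 binds, and Cxcl14 is an epithelial chemokine whose receptor is less settled. In the injured kidney the ligands of Cxcr2 are known for the recruitment of neutrophils to the tissue.

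The promoter bases of the genes that the results turn on are shown first, since Cxcl1, Cxcl2 and Cxcl3 share a stretch of sequence there. RefSeq promoters (GRCm38.p6, 250 bases before the start of the gene) were found for 7 of the 9 genes, and none was used here for Cxcl5 and Cxcl16. Each line reads 5′ to 3′ on the strand of the gene and ends 31 bases before the start. The lines of Cxcl1 (chr5:90891095-90891214, plus strand), Cxcl2 (chr5:90903749-90903868, plus strand) and Cxcl3 (chr5:90785951-90786070, plus strand) begin 150 bases before it. The lines of Cxcl9 (chr5:92328110-92328299, minus strand) and Cxcl10 (chr5:92348920-92349109, minus strand) begin 220 bases before it. Capitals mark matches, on either strand, to the general kB pattern GGGNNNNNCC or to the interferon response pattern GAAANNGAAA, and overlapping matches run together.
Cxcl1: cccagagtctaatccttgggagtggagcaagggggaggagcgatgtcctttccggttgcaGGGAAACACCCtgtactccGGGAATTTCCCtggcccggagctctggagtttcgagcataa
Cxcl2: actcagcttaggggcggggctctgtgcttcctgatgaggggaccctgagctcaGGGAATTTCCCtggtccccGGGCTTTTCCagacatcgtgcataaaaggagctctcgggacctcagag
Cxcl3: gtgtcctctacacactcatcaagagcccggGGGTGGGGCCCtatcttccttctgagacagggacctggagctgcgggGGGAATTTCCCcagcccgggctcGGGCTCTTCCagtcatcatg
Cxcl9: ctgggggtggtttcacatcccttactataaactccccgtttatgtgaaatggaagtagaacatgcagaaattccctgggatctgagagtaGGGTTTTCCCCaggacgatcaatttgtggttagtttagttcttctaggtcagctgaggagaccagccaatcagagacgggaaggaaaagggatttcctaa
Cxcl10: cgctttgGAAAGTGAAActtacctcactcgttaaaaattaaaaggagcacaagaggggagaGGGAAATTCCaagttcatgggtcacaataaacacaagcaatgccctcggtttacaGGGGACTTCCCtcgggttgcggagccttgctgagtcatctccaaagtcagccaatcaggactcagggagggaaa

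The longest run of bases that the upstream windows of Cxcl1, Cxcl2 and Cxcl3 had in common was the 11 bases GGGAATTTCCC. It lay at -71 to -61 in Cxcl1, at -97 to -87 in Cxcl2 and at -73 to -63 in Cxcl3, counted from the start of each gene. On either strand it was found in 14 of 32851 promoters of the same length (0.0426%). The general pattern GGGNNNNNCC was in 45.8% of all promoters, so its presence in Cxcl9, Cxcl10 and Cxcl12 is common among genes. GAAANNGAAA was in 2.98% of promoters and, of these 7 genes, in Cxcl10 (-213 to -204) and in Cxcl14 (-172 to -163). These matches describe the letters only.

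All 9 genes are annotated as protein coding in GRCm38. Cxcl5 (chr5:90759360-90761624), Cxcl3 (chr5:90786103-90789600), Cxcl1 (chr5:90891241-90893115) and Cxcl2 (chr5:90903871-90905938) lie in this order on the plus strand of chromosome 5. Cxcl9 (chr5:92321347-92328079) and Cxcl10 (chr5:92346638-92348889) are neighbors on its minus strand. Cxcl12 lies on chr6:117168535-117181367, Cxcl14 on chr13:56288643-56296551 and Cxcl16 on chr11:70453983-70459984. Reads of 50 bases can be split between genes that share sequence. Cxcl2 and Cxcl3 shared 126 stretches of that length, which were 5.84% of the 2159 stretches of the Cxcl2 transcripts. No other pair of the 9 genes shared any.

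The libraries held 20881334 to 51624602 estimated counts each. The cell type labels were checked against marker genes, and the PMN libraries did not hold neutrophil transcripts only. In CPM (counts scaled to library size), the 9 neutrophil markers summed to 5537 to 24270 in the 5 PMN sham libraries and 11270 to 29250 in the 5 PMN IRI libraries, against 1.79 to 110.3 in the 11 TEC libraries. The 9 proximal tubule markers, however, summed to 1197 to 10570 in PMN sham and 492.8 to 845.1 in PMN IRI libraries, against 2593 to 18050 in TECs. The 7 macrophage markers summed to 2581 to 8669 in PMN sham and 779.9 to 1803 in PMN IRI libraries, and to 3.43 to 34.3 in TECs. PMN sham control replicate 2 had the highest proximal tubule sum of the PMN libraries and also 4330 CPM of Umod, the urinary protein of the thick ascending limb. The TEC libraries did not hold proximal transcripts only. The 6 markers of the distal tubule and collecting duct summed to 182.1 to 1238 CPM in TEC sham and 89.3 to 633.8 CPM in TEC IRI libraries. In PMN sham and PMN IRI libraries they summed to 115.3 to 5071 and 47.2 to 574.7 CPM. In TECs, Camp was at 0 in all 11 libraries, and Ly6g and Ltf were at 0 in the 6 sham libraries. In bulk samples like these, fewer cells of a type and less RNA per cell cannot be told apart.

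Per transcript length, Cxcl2 was the leading member in the PMN libraries and a trace in TECs after sham surgery. In TPM (transcript abundance corrected for length and library size), the median of Cxcl2 was 352.9 in the 5 PMN sham libraries (range 219.5 to 615.7) and 3150 in the 5 PMN IRI libraries (range 2160 to 4017). Cxcl2 made up 57.5 to 81.0% of the summed TPM of the 9 genes in each PMN sham library and 80.4 to 88.3% in each PMN IRI library. Next in PMN sham libraries came Cxcl16 with a median of 90.2 TPM (58.5 to 237.0), whose range met that of Cxcl2, and then Cxcl1 with 17.4 TPM (0 to 57.9). Cxcl3 (7.16 TPM, 0.0467 to 89.0) and Cxcl9 (6.24 TPM, 2.60 to 13.3) followed and overlapped with Cxcl1. The order differed in PMN IRI libraries, where Cxcl3 was second with 468.0 TPM (433.5 to 745.1). Cxcl1 (36.3 TPM, 28.1 to 94.9), Cxcl10 (30.2 TPM, 1.11 to 54.9) and Cxcl16 (29.8 TPM, 5.45 to 62.1) overlapped there.

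In TEC libraries the summed TPM of the family was far smaller, 13.3 to 51.1 after sham surgery and 42.9 to 62.0 after IRI, against 306.4 to 4959 in PMNs. These sums depend on which genes share the total. When TPM were recomputed without genes of the sex chromosomes and mitochondria they were 23.0 to 85.0 and 57.3 to 94.0 in TECs and 341.9 to 5186 in PMNs, and the medians of the TECs rose 1.42 to 1.99 times. Cxcl16 led in 5 of the 6 TEC sham libraries and Cxcl1 in the other one. In TEC IRI libraries Cxcl1 led in 4 of 5 and Cxcl2 in the other one. The TEC sham medians were 20.8 TPM for Cxcl16 (8.71 to 28.4), 3.18 TPM for Cxcl1 (0 to 21.2), 2.43 TPM for Cxcl10 (0 to 6.74) and 2.22 TPM for Cxcl12 (0 to 6.15), and the last 3 did not separate beyond their spread, with Cxcl12 ahead of Cxcl10 in the recomputed values. The TEC IRI medians were 23.9 TPM for Cxcl1 (18.4 to 34.2), 7.39 TPM for Cxcl16 (0.357 to 21.1) and 5.18 TPM for Cxcl2 (1.53 to 23.1), again with overlapping ranges.

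**Figure D1:**
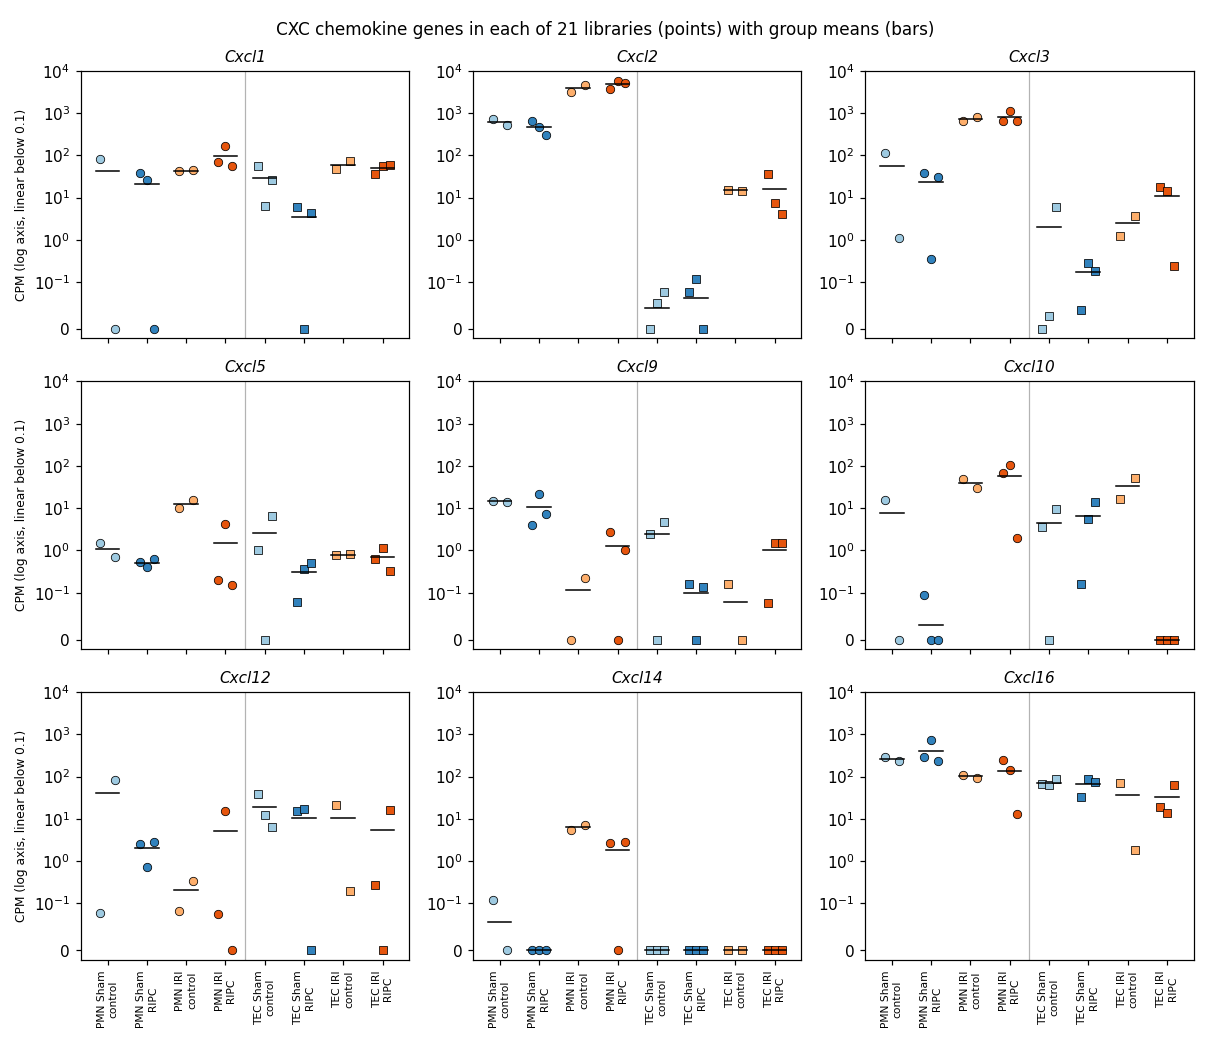
CPM of the 9 genes (1 panel each) in every library, on a log axis that is linear below 0.1 CPM. Circles are PMN and squares TEC libraries, blue for sham and orange for IRI (lighter for control, darker for RIPC), and bars are group means. Cxcl2 in PMNs lies between 309.8 and 706 CPM after sham surgery and between 3174 and 5813 CPM after IRI.

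The first comparison asked which of the chemokine genes differed between IRI and sham surgery in PMNs. Cxcl2, a main neutrophil attractant of the mouse, rose 24 hours after IRI, and of the 9 genes it alone passed the test with edgeR. Its CPM were 706 and 517.5 in the sham control libraries and 651, 472 and 309.8 in the sham RIPC libraries. After IRI they were 3174 and 4491 in the control libraries and 3680, 5813 and 5003 in the RIPC libraries. Every IRI library thus lay above every sham library. The means were 4432 ± 1047 CPM after IRI and 531 ± 156 CPM after sham surgery (SD, n = 5 and 5). The log2 fold change was 2.99 (SE 0.26, edgeR quasi-likelihood test, adjusted p = 0.00672), and the adjusted p lay between 0.00407 and 0.0392 when any one library was left out (0.0101 without PMN sham control replicate 2). Of all 25002 genes tested, 104 passed (0.416%).

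The other ligands of Cxcr2 did not pass in PMNs. Cxcl3 had 110.6 and 1.12 CPM in the sham control libraries and 37.6, 0.353 and 31.4 CPM in the sham RIPC libraries. It had 638.5 and 803 CPM in the IRI control libraries and 652, 1146 and 630.2 CPM in the IRI RIPC libraries. The groups did not overlap, but the sham libraries ranged over more than 2 orders of magnitude, and the log2 fold change of 4.41 had an SE of 1.35 (edgeR adjusted p = 0.303). Without the filter on low counts the adjusted p of Cxcl3 was 4.34e-09 and with DESeq2 0.00282, and it reached 0.516 over the alternatives. Libraries of the 2 surgeries did not overlap for 3 of the 9 genes (Cxcl2, Cxcl3 and Cxcl9), and for 5.51% of all genes tested. Cxcl1, the closest mouse counterpart of the growth-regulated chemokines, was at 0 in 1 library of each sham group. It had 83.1, 37.7 and 25.7 CPM in the 3 other sham libraries and 41.6 to 164.1 CPM in the 5 IRI libraries (log2 fold change 1.12, SE 1.70, edgeR adjusted p = 0.855). Cxcl5 had 0.397 to 1.46 CPM after sham surgery. After IRI it had 10.3 and 15.4 CPM in the control libraries and 0.194, 4.12 and 0.154 CPM in the RIPC libraries (log2 fold change 2.55, SE 1.32, edgeR adjusted p = 0.436).

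The 2 interferon-induced ligands had fitted changes of opposite sign in PMNs, neither of which passed. Cxcl9 had 15.1 and 13.8 CPM in sham control and 3.96, 21.5 and 7.12 CPM in sham RIPC libraries. After IRI it had 0 and 0.226 CPM in control and 2.76, 0 and 1.00 CPM in RIPC libraries, so all 5 IRI libraries lay below all 5 sham libraries (log2 fold change -5.02, SE 1.81, edgeR adjusted p = 0.386). Cxcl10 was at 0 in 3 of the 5 sham libraries, and the remaining 2 held 15.3 and 0.0943 CPM. After IRI it had 47.9 and 30.6 CPM in control libraries and 66.2, 107.7 and 1.96 CPM in RIPC libraries (log2 fold change 6.50, SE 2.0, edgeR adjusted p = 0.305). With DESeq2 both passed, Cxcl9 at an adjusted p of 0.00341 and Cxcl10 at 0.00168. Over all alternatives the adjusted p ran from 0.00341 to 0.840 for Cxcl9 and from 0.000655 to 0.552 for Cxcl10.

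Of the remaining 3 genes none passed in PMNs. Cxcl14 had 3 reads in 1 sham library and none in the other 4, and 463 reads in the IRI libraries, of which 1 held none. The pooled ratio of its counts was 136 (95% interval 46.2 to 661, counting error only), and the fitted log2 fold change was 7.53 (SE 2.44, edgeR adjusted p = 0.363, 0.00551 with DESeq2, 0.00551 to 0.884 over the alternatives). Cxcl16 had 231.4 to 718 CPM after sham surgery and 12.8 to 244.1 CPM after IRI, with 1 IRI library above the lowest sham library (log2 fold change -1.51, SE 0.68, edgeR adjusted p = 0.413). Cxcl12 rested on single libraries. PMN sham control replicate 2 held 1743 of its reads and PMN IRI RIPC replicate 2 held 380, while no other PMN library held more than 59. Its log2 fold change of -3.09 (SE 2.08, edgeR adjusted p = 0.552) became 1.42 without PMN sham control replicate 2.

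Markers of other cells moved in the same comparison. All 7 macrophage markers and all 9 proximal tubule markers had negative fitted values after IRI, like Cxcl9 and Cxcl16. None of these markers passed edgeR's test, 4 and 9 had an unadjusted p under 0.05, and 3 and 6 passed with DESeq2. Of the 9 neutrophil markers 7 had positive fitted values, 4 had an unadjusted p under 0.05, none passed with edgeR and 3 passed with DESeq2, and the ranges of the summed list overlapped. Set against the reads of the neutrophil list, Cxcl2 had 2.91 to 6.25 reads per 100 in the sham libraries and 19.9 to 44.4 per 100 in the IRI libraries, so that its groups did not overlap on that scale either. The part of the other cells in these results was not tested.

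**Figure D2:**
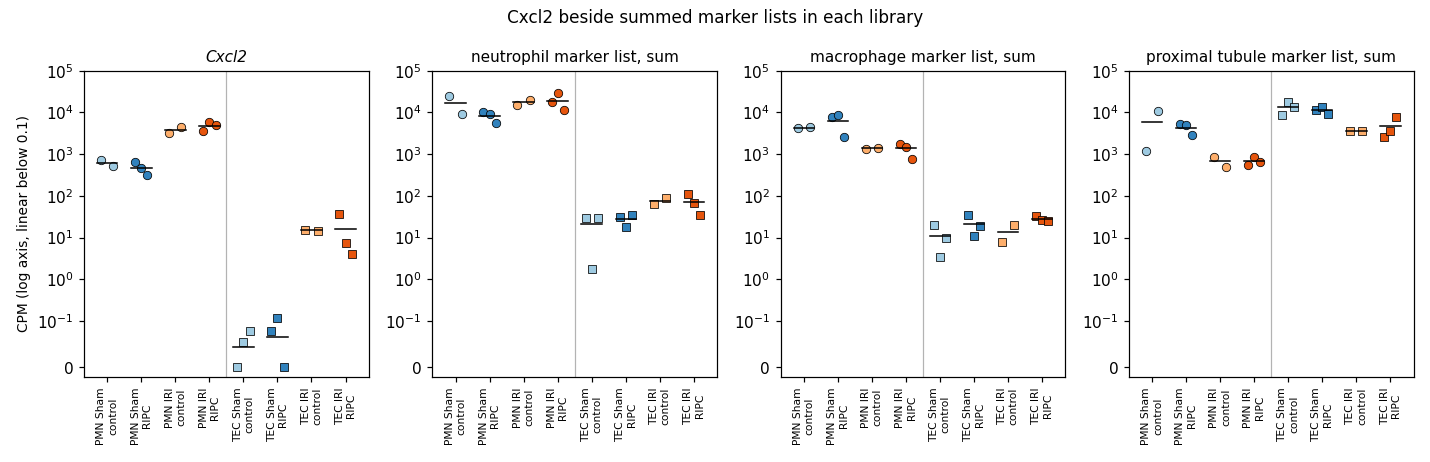
Cxcl2 and the summed CPM of the neutrophil, macrophage and proximal tubule marker lists in every library (log axis, linear below 0.1 CPM; bars are group means). In TECs the neutrophil list lies between 1.79 and 34 CPM after sham surgery and between 35.3 and 110.3 CPM after IRI.

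The same comparison was made in TECs, where 8 of the 9 genes passed the filter on low counts. Cxcl2 again was the one gene of the family to pass the test, and it rose from a trace. The 6 sham libraries held 0, 2 and 2 reads (control) and 2, 3 and 0 reads (RIPC), all at or under 3 reads. The IRI libraries held 381 and 301 reads (control) and 927, 165 and 84 reads (RIPC), which were 15.4, 14.4, 36.1, 7.57 and 3.97 CPM. The groups did not overlap, and no other gene of the family separated them, against 4.58% of all genes. The pooled ratio was 283 (95% interval 149 to 620, counting error only). The fitted log2 fold change was 8.00 (SE 1.48, edgeR adjusted p = 0.0182), and 363 of 25917 genes passed (1.4%). The call was lost in 6 of the 11 fits that left out 1 library, at adjusted p from 0.0544 to 0.0767. These were the fits without TEC sham control replicate 2 or 3, without any one of the TEC sham RIPC libraries, or without TEC IRI RIPC replicate 1.

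The summed CPM of the neutrophil list in the same TEC libraries was 1.79 to 34 after sham surgery and 35.3 to 110.3 after IRI, also without overlap. S100a8, an abundant neutrophil protein, had 16.2 and 26.8 CPM in the TEC IRI control libraries, 19.2, 2.57 and 0.850 CPM in the TEC IRI RIPC libraries and 0 to 2.30 CPM in the 6 sham libraries. Of the 6 neutrophil markers tested, all 6 had a positive fitted change in TECs, 4 had an unadjusted p under 0.05, none passed with edgeR and 3 passed with DESeq2. Cxcl2 reads per 100 reads of the neutrophil list were 24.6 and 16.2 in TEC IRI control and 32.7, 11.0 and 11.2 in TEC IRI RIPC libraries, next to 19.9 to 44.4 in PMN IRI libraries. In the TEC sham libraries the same measure was 0 to 3.08. These ratios are not like for like, since 1 marker, Cxcr2, made up 20.1 to 74.6% of the list reads in TEC IRI and 69.8 to 92.0% in TEC sham libraries, against 2.47 to 7.35% in PMN IRI libraries. With Cxcr2 left out, which was decided after the values were seen, they were 40.2 and 20.3 in TEC IRI control, 50.2, 43.2 and 42.4 in TEC IRI RIPC and 20.4 to 47.9 in PMN IRI libraries. The list without Cxcr2 then rested on 198 to 1847 reads per TEC IRI library, and on 8 to 221 in TEC sham libraries. With Cxcr2 left out, the TEC sham and TEC IRI ratios overlapped. TEC sham control replicate 2, with 2 Cxcl2 reads against 8 list reads, lay above TEC IRI control replicate 2. The remaining TEC sham libraries lay at 0 to 4.84. The macrophage list summed to 3.43 to 34.3 CPM after sham surgery and 7.78 to 32.7 CPM after IRI, with overlap. Of its 6 markers tested 2 had positive fitted values, and the median log2 fold change was -1.30 against 0.15 over all genes tested. A negative change at an unadjusted p under 0.05 was found for 1, none passed with edgeR and 1 passed as lower with DESeq2. The fibroblast list summed to 0 to 7.66 CPM after sham surgery and 7.06 to 45.1 CPM after IRI. All 6 of its markers had positive fitted values, 4 had an unadjusted p under 0.05, and none passed with edgeR or DESeq2. All 9 proximal tubule markers had negative fitted values, 7 had an unadjusted p under 0.05, 4 passed with edgeR and 7 with DESeq2. The 3 erythrocyte genes, all at an unadjusted p under 0.05, summed to 2.70 to 554.4 CPM after sham surgery and 57.3 to 489.4 CPM after IRI. The 5 endothelial markers, 2 of them at an unadjusted p under 0.05, summed to 2.37 to 72.9 CPM and 5.86 to 225.5 CPM. None of the erythrocyte and endothelial markers passed with edgeR, and 1 of each list passed with DESeq2. The part of other cells in the Cxcl2 counts of TECs was not tested.

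Cxcl1 came next in TECs by its test, and it did not pass. It had 55.1, 6.23 and 25.9 CPM in sham control and 5.89, 0 and 4.32 CPM in sham RIPC libraries. After IRI it had 47.9 and 71.9 CPM in control and 35.5, 56.7 and 58.3 CPM in RIPC libraries, and 1 sham library lay within that range. Its log2 fold change was 2.46 (SE 0.94, edgeR adjusted p = 0.251, 0.0356 without the filter on low counts, 0.0356 to 0.380 over the alternatives). Cxcl3 had at most 7 reads in 5 of the 6 sham libraries and 152 in the remaining one, and 5 to 454 reads after IRI (log2 fold change 3.12, SE 1.72, edgeR adjusted p = 0.421). In the 4 TEC IRI libraries with at least 20 reads of Cxcl3, 95 to 100% of them were assigned to a transcript with a retained intron, against 7.24 to 18.1% in the 5 PMN IRI libraries.

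The other members were uneven among TEC libraries. Cxcl10 had 0 to 14.1 CPM after sham surgery. After IRI it had 16.4 and 51.4 CPM in the control libraries and no read in any of the 3 RIPC libraries. Both IRI control libraries thus lay above all 6 sham libraries, and the mean over all IRI libraries was above that of the sham libraries (13.6 ± 22.3 against 5.51 ± 5.56 CPM, SD, n = 5 and 6). The fitted log2 fold change was nevertheless -3.70 (SE 1.68, edgeR adjusted p = 0.326), since it averages control and RIPC on the log scale and the RIPC libraries were all at 0. Cxcl16 had 33.5 to 89.96 CPM in the sham libraries and 72.4, 1.81, 18.9, 14.0 and 64.7 CPM after IRI (log2 fold change -0.99, SE 0.74, edgeR adjusted p = 0.594). Cxcl12 had at most 7 reads in 1 of 6 sham and 3 of 5 IRI libraries, and the rest ranged from 6.53 to 39.3 CPM (log2 fold change -0.92, SE 1.63, edgeR adjusted p = 0.881). Cxcl5 stayed at or below 6.57 CPM and Cxcl9 at or below 4.69 CPM in every TEC library, with log2 fold changes of -0.27 (SE 1.82) and -0.76 (SE 2.01). Cxcl14 had no read in any of the 11 TEC libraries, which allows up to 3 reads in each.

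**Figure D3:**
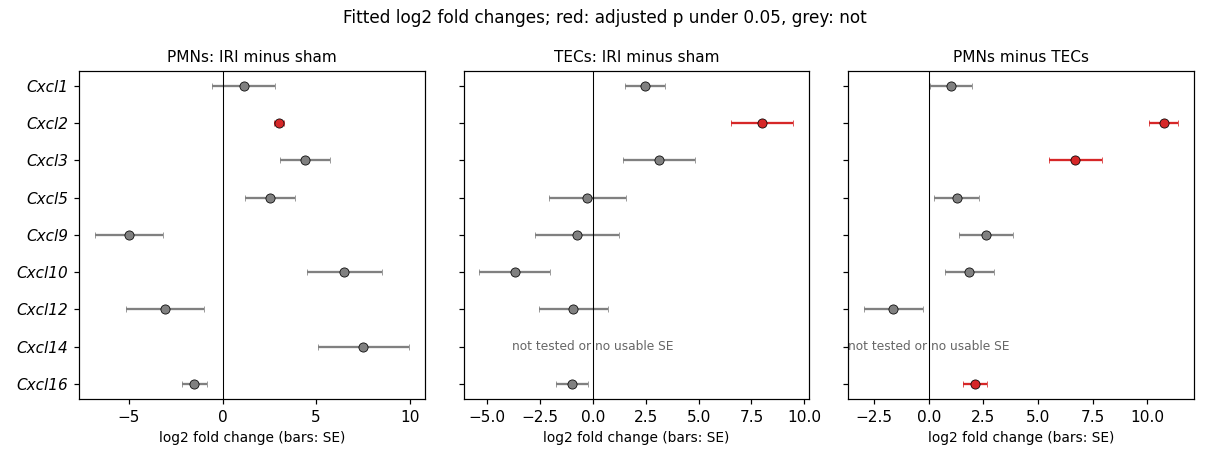
Log2 fold changes with SE (bars) of the 9 genes in 3 comparisons, red where the adjusted p is under 0.05 and grey where it is not (Cxcl14 has no usable value in TECs or between the cell types). Cxcl2 is red in all 3, at 2.99 in PMNs, 8.00 in TECs and 10.74 between the cell types.

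Between the cell types, averaged over the 4 treatments, 3 of the 9 genes were higher in PMNs and none was higher in TECs, where 6.87% of 31769 genes passed in either direction. Cxcl2 had 2618 ± 2319 CPM in PMNs and 6.89 ± 11.1 CPM in TECs (SD, n = 10 and 11). Its log2 fold change was 10.74 (SE 0.65, edgeR adjusted p = 5.22e-09), and the lowest PMN library (332.2 CPM on the scale of this fit) lay above the highest TEC library (35.7 CPM). Such a separation was found for 1.1% of all genes and for no other member. Cxcl3 had 427.6 ± 443.6 CPM in PMNs and 3.78 ± 6.02 CPM in TECs (log2 fold change 6.71, SE 1.20, edgeR adjusted p = 0.00115). Cxcl16 had 247.8 ± 198.7 CPM in PMNs and 50.8 ± 29.4 CPM in TECs (log2 fold change 2.12, SE 0.56, edgeR adjusted p = 0.0223). Its adjusted p was 0.0858 with an offset for transcript length and 0.0507 without TEC IRI control replicate 2, and it ran from 0.000569 to 0.0858 over the alternatives. Cell type, tissue and isolation cannot be told apart here, and all 7 macrophage markers were higher in PMN libraries, as were all 9 neutrophil markers.

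For the 6 other genes the cell types were not separated by the test. Cxcl14 was counted only in PMN libraries (466 reads in all, none in TECs), and 463 of these reads came from PMN IRI libraries. Its mean over the 10 PMN libraries was at least 15.9-fold higher than the 3-read limit of the TEC libraries. The PMN sham libraries, with 3 reads in all, and PMN IRI RIPC replicate 2, with none, lay at or under that limit like the TECs. Cxcl9 had a log2 fold change of 2.63 (SE 1.23, edgeR adjusted p = 0.258, 0.0371 with DESeq2, 0.0371 to 1.00 over the alternatives). The values were 1.85 (SE 1.12, edgeR adjusted p = 0.471) for Cxcl10 and 1.27 (SE 1.05, edgeR adjusted p = 0.709) for Cxcl5. They were 1.03 (SE 0.97, edgeR adjusted p = 0.803) for Cxcl1 and -1.62 (SE 1.35, edgeR adjusted p = 0.718) for Cxcl12. Without PMN sham control replicate 1 the values of Cxcl1 and Cxcl10 turned to -2.27 and -0.85.

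Whether the effect of IRI differed between the cell types was tested as an interaction. No gene passed with edgeR (0 of 31769, 0%), while 3102 had an unadjusted p under 0.05 and 2395 passed with DESeq2. Among the 9 genes, 2 had an unadjusted p under 0.05, and both passed with DESeq2. The change of Cxcl2 was smaller in PMNs than in TECs by 5.01 on the log2 scale (interaction -5.01, SE 0.86, edgeR adjusted p = 0.0645). This value stands against TEC sham libraries with at most 3 reads, and its adjusted p was under 0.05 in 11 of the 21 fits without 1 library, over a range of 0.00753 to 0.128. Cxcl10 had an interaction of 10.18 (SE 2.71, edgeR adjusted p = 0.216, 0.000272 to 0.308 over the alternatives), with fitted changes of 6.50 in PMNs and -3.70 in TECs. The latter rests on the 3 TEC IRI RIPC libraries at 0, and the mean CPM was above that of the sham libraries in TECs as given above, as it was in PMNs (50.9 against 3.08 CPM). Of the 9 neutrophil markers, 5 had a negative and 1 a positive interaction at an unadjusted p under 0.05, and their part was not tested.

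The study compared RIPC with control after each operation, and none of the 9 genes passed edgeR's test in any of these comparisons. In PMNs after sham surgery, 1 of the 25002 genes passed (0.004%), and 1 of the 9 chemokine genes (Cxcl10) had an unadjusted p under 0.05 and passed with DESeq2. Cxcl2 had 478 ± 171 CPM with RIPC and 612 ± 133 CPM without (SD, n = 3 and 2; log2 fold change -0.36, SE 0.34, edgeR adjusted p = 0.870). Cxcl16 had 414 ± 264 CPM with RIPC and 263.5 ± 45.4 CPM without (log2 fold change 0.65, SE 0.96, edgeR adjusted p = 0.979). The value of Cxcl10 (log2 fold change -7.71, SE 2.66, edgeR adjusted p = 0.705) came from 388 reads in 1 of the 2 control libraries, with none in the other and 2, 0 and 0 in the RIPC libraries. It turned to 2.76 without that library, PMN sham control replicate 1. RIPC and control libraries did not overlap for 1 of the 9 genes (Cxcl5, lower with RIPC) and for 12.8% of all genes.

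In PMNs after IRI, no gene passed for RIPC (0 of 25002, 0%). Of all genes, 680 had an unadjusted p under 0.05 and 426 passed with DESeq2, and of the 9 chemokine genes none did either. Cxcl2 had 4832 ± 1077 CPM with RIPC and 3833 ± 932 CPM without (SD, n = 3 and 2; log2 fold change 0.33, SE 0.35, edgeR adjusted p = 1.00). Cxcl3 had a log2 fold change of 0.17 (SE 1.62, edgeR adjusted p = 1.00) and -0.14 without PMN IRI RIPC replicate 2. Cxcl5 was the gene with the smallest unadjusted p of the 9, with 248 and 410 reads in the control libraries and 5, 100 and 4 in the RIPC libraries (log2 fold change -3.11, SE 1.78, edgeR adjusted p = 0.920). Libraries did not overlap for Cxcl5 and Cxcl14 (lower with RIPC) and Cxcl1 (higher with RIPC), which is 3 of 9, and for 16.5% of all genes. The interaction of RIPC with surgery passed for no gene in PMNs (0%, with 1434 genes at an unadjusted p under 0.05 and 657 passing with DESeq2). Of the 9 genes only Cxcl10 had an unadjusted p under 0.05 there (8.29, SE 3.53, edgeR adjusted p = 0.719), and it turned to -2.16 without PMN sham control replicate 1. The interaction of Cxcl2 was 0.69 (SE 0.49, edgeR adjusted p = 0.834).

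In TECs after sham surgery, no gene passed for RIPC (0 of 25917, 0%), with 1175 genes at an unadjusted p under 0.05 and 430 passing with DESeq2. Cxcl1 was the only 1 of the 8 tested chemokine genes with an unadjusted p under 0.05, and none passed with DESeq2. All 3 RIPC libraries of Cxcl1 (5.89, 0 and 4.32 CPM) lay below all 3 control libraries (55.1, 6.23 and 25.9 CPM), narrowly so for the highest RIPC and the lowest control library. The log2 fold change was -3.09 (SE 1.32, edgeR adjusted p = 0.708). It was the only gene of the family whose libraries did not overlap, against 7.85% of all genes. Erythrocyte markers also differed between these groups, with all 3 hemoglobin genes at an unadjusted p under 0.05. Hba-a1 had 0 to 0.758 CPM with RIPC and 10.8 to 285.7 CPM without. Endothelial markers summed to 50.4, 35.15 and 72.9 CPM with RIPC and 20.5, 2.37 and 21.1 CPM without. All 5 had positive fitted values, 1 had an unadjusted p under 0.05 and 1 passed with DESeq2. Of 6 macrophage markers tested 4 had positive fitted values, 1 of them at an unadjusted p under 0.05, and none passed with DESeq2. The part of blood and of other cells in this comparison was not tested.

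In TECs after IRI, Cxcl10 was the gene of the family with the widest gap between RIPC and control. The control libraries held 406 and 1079 reads, and the 3 RIPC libraries held none, which allows up to 3 reads each. The level with RIPC was at least 257-fold lower than that without, and at least 125-fold or 390.0-fold lower when TEC IRI control replicate 1 or 2 stood alone. Endothelial markers moved the same way. Their sum was 225.5 and 160.7 CPM in the control and 83.3, 9.76 and 5.86 CPM in the RIPC libraries without overlap. All 5 had negative fitted values, of which 1 (Emcn) had an unadjusted p under 0.05 and none passed with edgeR or DESeq2, and their part was not tested. The sham libraries give the range in the absence of clamping. They held 82, 0 and 248 reads in control and 4, 139 and 304 reads in RIPC libraries, so that a library without Cxcl10 also occurred among the controls. The fitted log2 fold change was -12.71 (SE 3.19, edgeR adjusted p = 0.703), and it passed without the filter on low counts (adjusted p = 0.00536) and with DESeq2 (adjusted p = 0.000103), with a range of 0.000103 to 0.932 over the alternatives. Of all 25917 genes 1 passed (0.00386%), and libraries did not overlap for 16.6% of them, as for 1 of the 8 chemokine genes tested. Cxcl1 had 50.2 ± 12.7 CPM with RIPC and 59.9 ± 16.9 CPM without (SD, n = 3 and 2; log2 fold change -0.26, SE 1.35, edgeR adjusted p = 1.00). The interaction with surgery was -13.29 for Cxcl10 (SE 3.58, edgeR adjusted p = 0.689, 0.00393 to 1.00 over the alternatives). At an unadjusted p under 0.05, 3 of 5 endothelial markers had a negative interaction and all 3 erythrocyte genes a positive one. The interaction passed for no gene with edgeR (0%), with 1869 genes at an unadjusted p under 0.05 and 600 passing with DESeq2.

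The receptors and regulators of the family were read from lists of genes. In PMNs after IRI, 3 of 10 NF-kB-responsive genes rose and none fell (0.416% of all genes passed), and all 10 had positive fitted values, with a median log2 fold change of 2.80 against -0.01 over all genes tested. Those that passed were Nfkbia, the inhibitor of NF-kB (log2 fold change 2.23, SE 0.37, edgeR adjusted p = 0.0484), Relb, a subunit of NF-kB (5.73, SE 0.80, edgeR adjusted p = 0.0274), and Il1b, the cytokine interleukin-1 beta (1.97, SE 0.27, edgeR adjusted p = 0.0262). Nfkbiz, a nuclear partner of NF-kB, had 15.4 to 289.9 CPM after sham surgery and 634.5 to 1520.0 CPM after IRI without overlap (edgeR adjusted p = 0.112). None of 7 receptors passed with edgeR, 3 had an unadjusted p under 0.05, and 2 passed with DESeq2. Cxcr2, the receptor of the neutrophil chemokines, had 29.1 to 273.8 CPM after sham surgery and 515.4 to 860 CPM after IRI without overlap (log2 fold change 2.31, SE 0.48, edgeR adjusted p = 0.115). Cxcr4, the receptor of Cxcl12, had 2.60 to 83.4 and 36.0 to 88.6 CPM (edgeR adjusted p = 0.390), and Ackr3 had 0.0441 to 28.6 and 0 to 0.377 CPM (edgeR adjusted p = 0.324). Cxcr3 lies on the X chromosome and was not tested.

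None of 4 factors of mRNA decay, 8 of interferon signaling and 5 proteases of chemokines passed with edgeR in that comparison. An unadjusted p under 0.05 was found for 2, 1 and 2 of them, and 2, 1 and 2 passed with DESeq2. Zfp36l1, a binding protein of AU-rich mRNA, had 86.2 to 166.7 CPM after sham surgery and 347.5 to 420.6 CPM after IRI (log2 fold change 1.62, SE 0.27, edgeR adjusted p = 0.0514). Irf8, a transcription factor of the monocyte line, had 80.8 to 208.7 CPM after sham surgery and 13.1 to 53.0 CPM after IRI (edgeR adjusted p = 0.158). In TECs after IRI no gene passed with edgeR among 5 receptors, 9 NF-kB-responsive genes, 8 of interferon signaling, 4 of mRNA decay and 4 proteases tested. An unadjusted p under 0.05 was found for 0, 2, 0, 0 and 1 of them, and 0, 2, 0, 0 and 1 passed with DESeq2. The median log2 fold change of the NF-kB-responsive genes was 1.06 there, against 0.15 over all genes tested.

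Between the cell types, where 6.87% of all genes passed, 7 of 10 NF-kB-responsive genes were higher in PMNs, among them Il1b (log2 fold change 10.91, SE 1.18, edgeR adjusted p = 4.44e-06) and Tnf (14.04, SE 1.07, edgeR adjusted p = 8.61e-07). Tnf did not pass the filter on low counts in the fit to TECs. No TEC library held more than 0.0798 CPM of it on the scale of that fit, below the 3-read limit. The size of its fold change thus rests on libraries at or near 0. Of 7 receptors tested 2 were higher in PMNs, Cxcr2 (3.88, SE 0.48, edgeR adjusted p = 2.02e-05) and Cxcr4 (6.09, SE 1.27, edgeR adjusted p = 0.00425). The scavenger Ackr3 was higher in TECs (log2 fold change -6.17, SE 0.98, edgeR adjusted p = 0.000483). TEC libraries held 1.42 to 47.5 CPM of Cxcr2, which was also 1 of the 9 neutrophil markers, and 13.6 to 92.2 CPM of Ackr3.

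**Figure D4:**
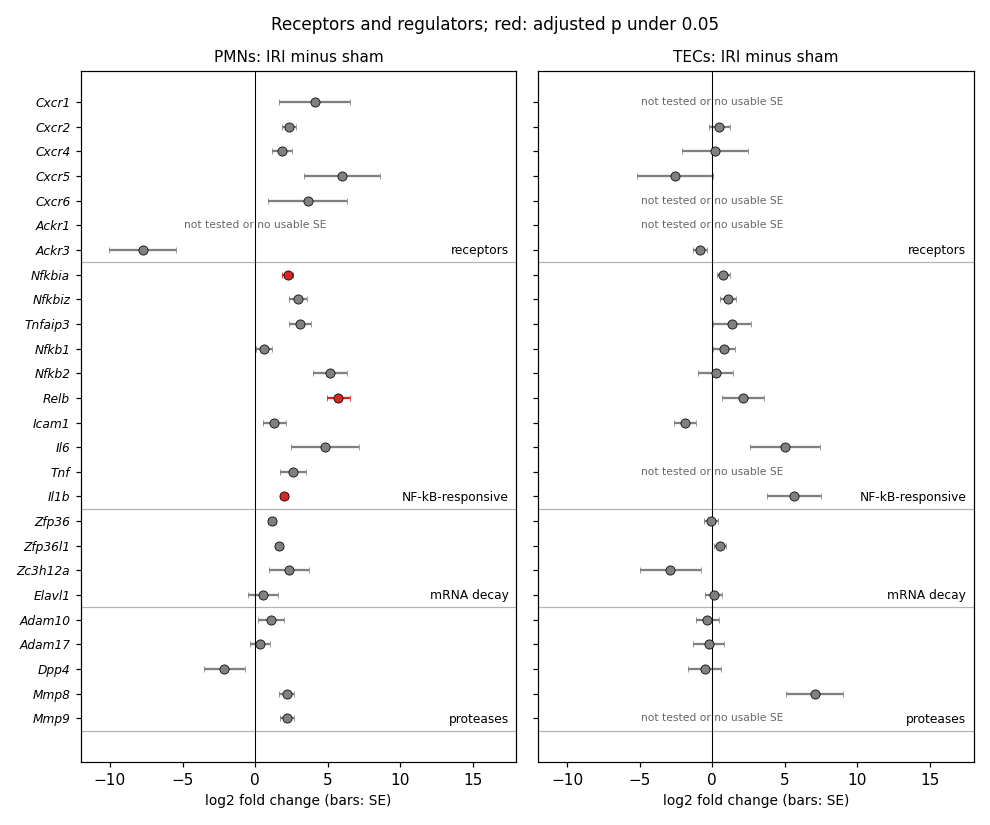
Log2 fold changes between IRI and sham surgery (bars are SE) for receptors, NF-kB-responsive genes, factors of mRNA decay and proteases in PMNs (left) and TECs (right), red where the adjusted p is under 0.05. Red points are Nfkbia, Relb and Il1b in PMNs at 2.23, 5.73 and 1.97.

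The genes whose levels ran most like those of each chemokine over the 21 libraries were looked up by Pearson's r of log2(CPM + 1). These points share 2 cell types and their libraries, and r is given as a description only. For Cxcl2 they were Hdc, the histamine-forming enzyme (r = 0.98), and Il1r2, a decoy receptor for interleukin-1 (r = 0.98). For Cxcl3 they were Adam19 and Nckap1l (r = 0.95 and 0.94), and for Cxcl16 Ctsh, a lysosomal protease, and Myl12b (r = 0.84 and 0.78). Cxcl10 ran most like Galnt4 (r = 0.89) and Cxcl9 most like Scimp (r = 0.83). The lowest best match was that of Cxcl12 (Spata24, r = 0.76), and for Cxcl1 it was Prune1 (r = 0.81). Cxcl5 ran most like 4933436P19Rik (r = 0.91) and Cxcl14 most like Gm1604a (r = 0.98), and both chemokines were at or below 1.46 CPM in most libraries.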

How the data were processed

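Per the labels and the study's methods, oligo-dT primed, template-switched cDNA of the isolated cells was amplified at full length and sequenced as single reads of 50 bases. The authors used Trim Galore 0.6.4 and Salmon 1.0.0, and the submitters' notes name mm10. The deposited files give estimated counts and TPM per transcript, in 2 files per library whose difference the labels do not state. Both files of a library were added, then all transcripts of each gene, and rounded. Deposited TPM were summed per gene and averaged over both files. Of 140748 transcripts, 139864 matched Gencode vM21 (0.139 to 0.255% of reads were in the rest). PCR copies were not removed, so intervals and the 3-read limit cover counting error only.

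Genes on chromosomes X and Y and of mitochondria were left out, as in the study. edgeR 4.0.16 (TMM, filterByExpr, quasi-likelihood test, R 4.3.3) was fitted to the 10 PMN, the 11 TEC and all 21 libraries with 1 mean per group. IRI effects average RIPC and control, and p-values were adjusted over all genes tested (Benjamini-Hochberg, threshold 0.05). The fits were also run on simulated data with a smaller spread between libraries than here. Changes were put there only into genes well above 0 reads, so that run does not cover genes near 0. CPM are on the TMM scale of the cell type's own fit, and of the fit to all libraries only where PMNs are compared with TECs. Comparisons of a cell type share libraries. DESeq2 1.42.0, other scaling, no filter, a length offset, a replicate block and leaving out each library were alternatives. The members and gene lists were chosen with earlier results of these data known. All members were named, and of the lists up to 4 genes by smallest p or as receptors. Umod, S100a8, Hba-a1, Emcn and Hpn were named after their values were seen.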

Additional observations from a re-analysis of the deposited data

How the results depend on the processing

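The settings were followed for 39 fold changes of the 9 genes. These held the members for IRI and between the cell types, with Cxcl14 only for IRI in PMNs. For RIPC and the interactions they held only some of the members. All 39 kept their direction and side of the threshold under DESeq2 size factors. All 8 RIPC values obtained in fits to the compared groups alone did so, and not every followed RIPC value was obtained there. With an offset for transcript length 38 did so, the exception being Cxcl16 between the cell types. Without the filter on low counts 8 of the 39 newly passed and with DESeq2's Wald test 10 of 37, which gave Cxcl12 in PMNs and Cxcl3 between the cell types no adjusted p. The cause was not tested. The chemokine genes called became, without the filter and with DESeq2, 3 and 5 for IRI in PMNs, 1 and 1 for RIPC after sham surgery in PMNs, 1 and 1 for RIPC after IRI in TECs, 1 and 1 for the interaction of RIPC with surgery in TECs, and 2 and 2 for the interaction of surgery with cell type. For IRI in TECs it was 2 without the filter. Over all genes, the calls without the filter and with DESeq2 were 971 and 1942 (IRI in PMNs), 1289 and 2234 (IRI in TECs), 139 and 817 (RIPC after sham surgery, PMNs), 18 and 426 (RIPC after IRI, PMNs), 54 and 430 (RIPC after sham surgery, TECs), 71 and 701 (RIPC after IRI, TECs), 101 and 657 (interaction with RIPC, PMNs), 84 and 600 (interaction with RIPC, TECs) and 722 and 2395 (surgery by cell type). Between the cell types DESeq2 called 5389. In fits to the compared groups alone, no gene (0) passed for RIPC after sham surgery in PMNs or after IRI in TECs.

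Within a cell type, no pairing by replicate number was seen. Deviations from group means correlated at -0.02 to 0.03 over 13 same-numbered PMN pairs and at -0.11 to 0.14 over 15 TEC pairs. Whether PMN and TEC libraries of the same number came from 1 animal was not checked, and the fits to all libraries took them as unpaired. With a replicate block the calls over all genes were 23 for IRI in PMNs, 0 for RIPC after sham surgery in PMNs and 3 for RIPC after IRI in TECs, and the log2 fold changes for IRI in TECs turned to 0.59 (Cxcl5) and 0.58 (Cxcl9). The block changed no call of the 9 genes.

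Leaving out 1 library at a time gave 512 values of the followed fold changes, of which 485 kept direction and call. Calls over all genes were 13 (without PMN IRI RIPC replicate 2) to 393 (without PMN sham control replicate 1) for IRI in PMNs and 92 (without TEC sham control replicate 2) to 714 (without TEC IRI RIPC replicate 3) for IRI in TECs. For RIPC they were 0 to 11 (PMNs, sham), 0 to 6 (TECs, sham), 0 to 22 (TECs, IRI) and 0 to 15 (interaction, TECs), and 0 to 124 for surgery by cell type. The chemokine genes called were 0 to 1 for IRI in TECs and 0 to 2 for surgery by cell type. Among the followed values, signs turned for Cxcl12 (-6.55 to 1.42, IRI in PMNs), Cxcl5 (-0.54 to 0.90, IRI in TECs), Cxcl1 (-2.27 to 1.30) and Cxcl10 (-0.85 to 2.12) between the cell types, Cxcl10 (-10.53 to 2.76, RIPC after sham surgery, PMNs), Cxcl3 (-0.14 to 0.37, RIPC after IRI, PMNs), Cxcl1 (-0.52 to 0.091, RIPC after IRI, TECs) and Cxcl10 (-2.16 to 11.11, interaction with RIPC, PMNs). Over all members tested, more signs turned for RIPC and the interactions. In PMNs they turned for 4 of 9 genes (RIPC after sham surgery), 4 of 9 (RIPC after IRI) and 6 of 9 (interaction with RIPC). In TECs they turned for 5 of 8, 5 of 8 and 4 of 8, in the same order. For surgery by cell type they turned for 4 of 9. With 2 or 3 libraries per group, the standard error for IRI in PMNs was above 1 on the log2 scale for 7 of the 9 genes. TPM recomputed without sex chromosome and mitochondrial genes raised all 8 TEC sham medians above 0 by 1.57 to 1.99 times (Cxcl16 from 20.8 to 38.8, Cxcl1 from 3.18 to 6.06, Cxcl12 from 2.22 to 4.41), the 7 TEC IRI medians by 1.42 to 1.59 times and PMN medians by at most 1.29 times.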

Other observations

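Other CXC ligands were counted as well. Pf4, the platelet factor, had 12.6 to 209.8 CPM in PMN libraries and 0 to 2.27 CPM in TEC libraries (log2 fold change 12.31, SE 1.44, edgeR adjusted p = 6.07e-05), and it was the 1 of 6 other ligands tested that passed between the cell types. Ppbp, which platelets release too, had 0 to 71.5 CPM in PMNs after sham surgery and 0 to 126.5 CPM after IRI (edgeR adjusted p = 0.401).

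The transcripts to which the reads were assigned differed among libraries. Of the Cxcl2 reads, 11.9 to 43.7% in PMN sham libraries and 25.6 to 31.9% in PMN IRI libraries went to transcripts with a retained intron. Of the Cxcl16 reads, 27.9 to 41.4% in PMN sham, 21.6 to 66.0% in PMN IRI, 35.7 to 55.7% in TEC sham and 50.2 to 86.7% in TEC IRI libraries went to a transcript annotated for nonsense-mediated decay. All 1743 Cxcl12 reads of PMN sham control replicate 2 and all 380 of PMN IRI RIPC replicate 2 were assigned to 1 transcript.

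Of the 14 genes whose promoters held GGGAATTTCCC, 9 were tested, 3 of which (Cxcl1, Cxcl2 and Cxcl3) are those from which the run was defined. In PMNs 5 of the 9 had a positive log2 fold change for IRI and 1, Cxcl2, passed (0.416% of all genes passed). In TECs 7 of the 9 had a positive one and of them Cxcl2 passed (1.4% of all genes passed). Hpn, a protease of the tubule, carried the same bases and had negative values in both (log2 fold change -6.20, SE 2.39 in PMNs and -2.12, SE 0.56 in TECs, edgeR adjusted p = 0.402 and 0.0864).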
